A study of Mus musculus with 8 samples.

Results

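The 10 genes described here handle iron and haem: Hmox1, Blvrb, Tfrc, Slc11a1, Slc40a1, Fth1, Ftl1, Ncoa4, Ireb2 and Aco1. They were taken by gene symbol from the deposited expression table, which held all 10 of them among 48500 genes. The rule uses no expression value, but the 10 genes were chosen with earlier results of these data known. RNA-seq had been made from the stem cell fraction (LSCs, leukaemia stem cells) of a mouse acute myeloid leukaemia that HOXA9 and MEIS1 drive. About 10000 bone marrow cells per library were sorted by GFP and c-Kit, with cells bearing Gr-1 gated out, and cDNA was made with a Smart-Seq V4 kit for very small amounts of RNA. The 8 libraries formed 2 groups: 4 from mice with both copies of Nynrin (Nynrin+/+, labelled WT) and 4 from mice without it (Nynrin-/-, labelled Nynrin-KO). By the labels, both groups carried the same leukaemia drivers and passed the same sort, and no drug treatment is given. Libraries carry the names WT1 to WT4 and KO1 to KO4 below. The title of the series asks about Nynrin, TXNIP and resistance to the BCL2 inhibitor venetoclax, and does not name iron. Whether each library is a different mouse is not stated in the labels, so the p-values cover only how far these libraries spread.

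Iron enters most blood cells bound to transferrin through the transferrin receptor, is stored in ferritin, and leaves through ferroportin. Macrophages also obtain iron by degrading the haem of old red cells, which haem oxygenase opens to release iron, carbon monoxide and biliverdin. When iron is scarce, the iron regulatory proteins bind hairpins in mRNA called iron-responsive elements: binding to a hairpin before the coding sequence blocks translation, and binding to hairpins after it protects the mRNA from decay. Of the 10 genes, 4 carry such hairpins in the mouse reference annotation. Fth1, Ftl1 and Slc40a1 carry them before the coding sequence, so their amounts of mRNA and of protein can be set separately. Tfrc carries them after it, where binding acts on the amount of mRNA. Only mRNA was measured here.

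The hairpins of Fth1, Ftl1, Slc40a1 and Tfrc are shown because they place these genes under the control of the proteins made from Ireb2 and Aco1. They were found in GENCODE M21 (GRCm38, also called mm10) by the loop CAGTGN, with N any base but G, between 5 bases on each side that pair with each other, with an unpaired C before the first of these. Only the transcript's own strand was searched. Each line gives 29 bases, 5′ to 3′, with the loop in capitals.
Fth1, 5′ UTR, chr19:9982732-9982760, plus strand: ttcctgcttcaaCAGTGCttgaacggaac
Ftl1, 5′ UTR, chr7:45459779-45459807, minus strand: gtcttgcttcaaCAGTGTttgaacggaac
Slc40a1, 5′ UTR, chr1:45925465-45925493, minus strand: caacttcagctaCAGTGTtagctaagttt
Tfrc, 3′ UTR, chr16:32631219-32631247, plus strand: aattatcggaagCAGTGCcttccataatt
Tfrc, 3′ UTR, chr16:32631598-32631626, plus strand: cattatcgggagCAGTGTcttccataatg
Tfrc, 3′ UTR, chr16:32631663-32631691, plus strand: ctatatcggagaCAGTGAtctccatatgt
Tfrc, 3′ UTR, chr16:32631710-32631738, plus strand: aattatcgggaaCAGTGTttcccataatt
The pattern stood in the 5′ UTR of 22 of 20916 protein-coding genes (0.105%) and in the 3′ UTR of 98 of 21045 (0.466%). A match is a match of letters and was not tested as a binding site.

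Some properties of the libraries touch every result. The knocked-out gene could not serve as a check of the labels: Nynrin stood at 0.00800 to 0.286 FPKM in WT and at 0.0982 to 0.437 FPKM in Nynrin-KO (fragments per kilobase of transcript, scaled to library depth), from 2 to 37 reads, and the labels do not say which part was removed. The depth recovered from the values ranged from 1.83 M reads in KO3 and 1.96 M in WT3 to 33.1 M in WT1. Xist, which silences an X chromosome in females, was 15.2 to 26.5 FPKM in WT and at most 0.366 FPKM in KO2 to KO4, whereas Ddx3y, on the Y chromosome, reached 18.2 to 20.7 FPKM in KO2 to KO4 and no more than 0.111 FPKM in any WT library. Sex and genotype therefore cannot be told apart, and KO1 held both transcripts (12.7 and 2.18 FPKM). Gm10800, a gene model of repeat-like sequence, was below 10000 FPKM in WT1, KO2 and KO4 and above it in the other 5 libraries. Kit, which encodes the c-Kit of the sort, was present in all libraries (2.63 to 6.40 FPKM in WT, 2.92 to 4.91 in Nynrin-KO). Ly6g, whose product the Gr-1 antibody recognises, ranged from 0.707 to 49.3 FPKM in WT and from 93.5 to 264 FPKM in Nynrin-KO.

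All 10 genes passed the filter of at least 1 FPKM in at least 4 libraries. By limma on log2(FPKM + 1), with Benjamini-Hochberg adjustment over 12524 genes at 0.05, 4 of them were higher in Nynrin-KO and 0 were lower. The 4 were Slc40a1, Hmox1, Slc11a1 and Ireb2. Among all genes tested, 14.0% were called higher and 13.8% lower. The median log2 change was 0.33 over the 10 genes and -0.03 over all genes tested. For 3 of the 10, every Nynrin-KO library lay above every WT library, which held for 16.7% of all genes tested. For 0 of the 10 did every Nynrin-KO library lie below every WT library (15.0% of all genes). The plots of the 10 genes by library and of their changes show the genes of iron export and haem opening higher in Nynrin-KO, while those of ferritin storage overlapped between the groups.

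**Figure D1:**
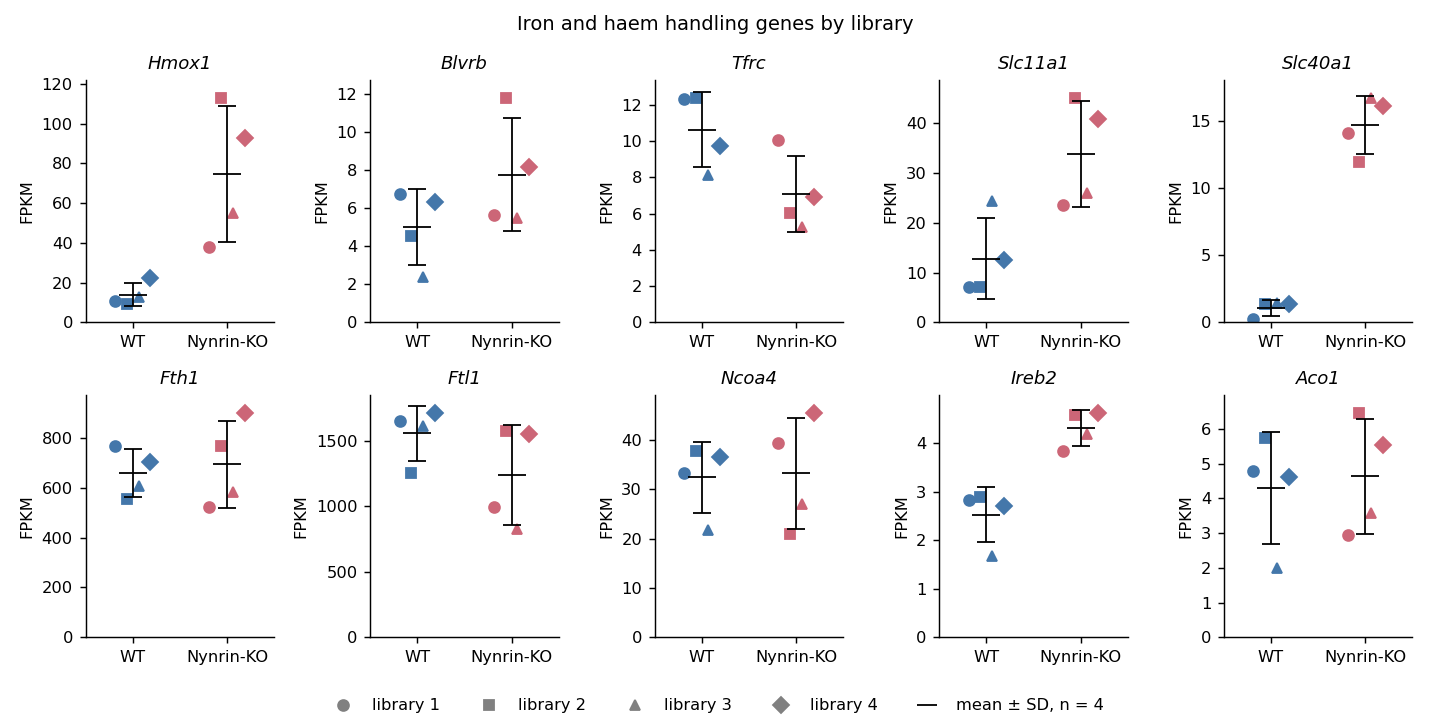
Expression of the 10 genes in FPKM (vertical axes, each from 0) in the 4 WT and 4 Nynrin-KO libraries. The mean and SD of each group are shown. The marker shape gives the library's number, which the labels do not describe as a pairing. Hmox1, Slc40a1 and Ireb2 have no overlap between groups, and the other 7 genes do.

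**Figure D2:**
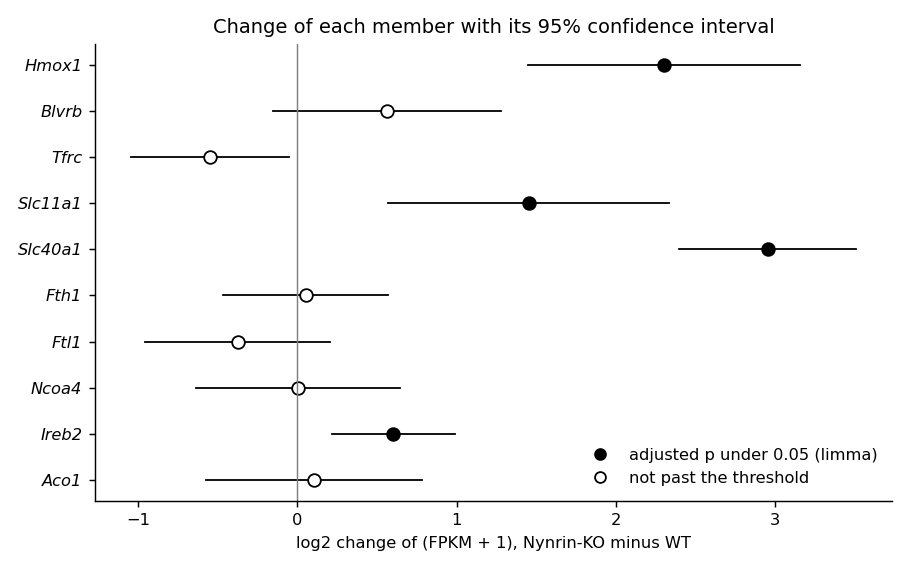
Change of each gene in Nynrin-KO against WT on the log2(FPKM + 1) scale (horizontal axis), with the 95% confidence interval from limma as a line; filled points passed an adjusted p of 0.05. Slc40a1 has the largest change at 2.95, and the interval of Tfrc lies below 0 although its adjusted p missed the threshold.

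Haem degradation was represented by Hmox1 and Blvrb. Hmox1 (ENSMUSG00000005413, chr8:75093621-75100589, plus strand) encodes the inducible haem oxygenase, the rate-limiting enzyme of haem breakdown. It was at 10.9, 9.28, 12.99 and 22.1 FPKM in WT1 to WT4 and at 38.1, 113, 55.1 and 92.6 FPKM in KO1 to KO4. The lowest Nynrin-KO library, KO1, thus lay above the highest WT library, WT4. The mean rose from 13.8 ± 5.75 to 74.7 ± 34.2 FPKM (SD, n = 4 each), a 5.40-fold difference and a log2 change of 2.30 (SE 0.38, 95% interval 1.45 to 3.16, limma adjusted p = 0.00357). It passed the threshold in 20 of 21 alternative fits, including each fit with 1 library left out. It missed it in the 5 libraries high in Gm10800, where the log2 change was 1.65 (adjusted p = 0.0643).

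Blvrb (ENSMUSG00000040466, chr7:27447978-27466144, plus strand) encodes biliverdin reductase B, an NADPH-dependent reductase of flavins and of biliverdin. It was at 6.73, 4.51, 2.37 and 6.33 FPKM in WT and at 5.61, 11.8, 5.46 and 8.15 FPKM in Nynrin-KO. The groups overlapped, since KO1 and KO3 lay within the range of WT. The means were 4.98 ± 1.99 and 7.75 ± 2.96 FPKM, with a log2 difference of 0.56 (SE 0.32, 95% interval -0.15 to 1.28, limma adjusted p = 0.216). In WT3 the value rested on 7 reads. The other enzymes of the route from haem to bilirubin, Hmox2 (constitutive haem oxygenase) and Blvra (biliverdin reductase A), were tested and did not pass (log2 differences 0.66 and 0.18, limma adjusted p = 0.168 and 0.685). Hmox1 was the only one of these 4 enzymes past the threshold, and whether its change differed from theirs was not tested.

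Iron export was represented by Slc40a1 (ENSMUSG00000025993, chr1:45908068-45926523, minus strand), which encodes ferroportin, the known iron exporter of vertebrate cells. It had the largest difference of the 10 genes. It was at 0.223, 1.33, 1.43 and 1.37 FPKM in WT1 to WT4 and at 14.1, 12.0, 16.7 and 16.1 FPKM in KO1 to KO4. The 4 Nynrin-KO libraries lay close together and far above every WT library. The mean rose from 1.09 ± 0.578 to 14.7 ± 2.15 FPKM (SD, n = 4 each), 13.5-fold, with a log2 change of 2.95 (SE 0.25, 95% interval 2.40 to 3.51, limma adjusted p = 0.000895). On the log2(FPKM + 1) scale the change of a gene this low in WT is understated, and a voom fit on the recovered reads gave 3.82. The WT values rested on as few as 11 reads, in WT3, but all lay above the level of 3 reads. Slc40a1 passed the threshold in 21 of 21 alternative fits, with log2 changes from 2.71 to 3.86 and adjusted p from 0.000157 to 0.0226. Without WT1, where it was lowest, the log2 change was 2.71 (adjusted p = 0.000475).

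Iron uptake was represented by Tfrc and Slc11a1. Tfrc (ENSMUSG00000022797, chr16:32608920-32632794, plus strand) encodes transferrin receptor 1. It was at 12.3, 12.4, 8.13 and 9.73 FPKM in WT and at 10.1, 6.05, 5.26 and 6.89 FPKM in Nynrin-KO. The libraries KO2, KO3 and KO4 lay below every WT library and KO1 lay among them. The means were 10.6 ± 2.08 and 7.06 ± 2.10 FPKM (SD, n = 4 each), with a log2 difference of -0.55 (SE 0.22, 95% interval -1.04 to -0.05), an unadjusted p of 0.0346 and a limma adjusted p of 0.0955. The difference thus failed the correction over all genes. It passed in 2 of 21 alternative fits, with array weights (-0.54, adjusted p = 0.0394) and without KO1 (-0.71, adjusted p = 0.0420).

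Slc11a1 (ENSMUSG00000026177, chr1:74375195-74386062, plus strand) encodes NRAMP1, a metal transporter of the phagosomes of macrophages and neutrophils. It was at 7.15, 7.15, 24.5 and 12.5 FPKM in WT and at 23.5, 45.2, 26.1 and 40.8 FPKM in Nynrin-KO. The groups overlapped in a single pair of libraries, with WT3 above KO1. The mean rose from 12.8 ± 8.17 to 33.9 ± 10.7 FPKM (SD, n = 4 each), 2.64-fold, with a log2 change of 1.45 (SE 0.39, 95% interval 0.57 to 2.33, limma adjusted p = 0.0237). It passed in 14 of 21 alternative fits. The adjusted p was 0.0629 without WT1, 0.0601 without WT2, 0.0657 without KO2 and 0.0645 without KO4, with log2 changes between 1.25 and 1.35. In the 5 libraries high in Gm10800 the log2 change was 0.87 (adjusted p = 0.312).

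Iron storage was represented by the 2 ferritin chains and by Ncoa4. Fth1 (ENSMUSG00000024661, chr19:9980598-9985098, plus strand) encodes the heavy chain, which oxidises iron for storage. It was at 767, 553, 608 and 705 FPKM in WT and at 523, 767, 582 and 902 FPKM in Nynrin-KO. The groups overlapped throughout, with both the lowest and the highest library in Nynrin-KO. The means were 658 ± 96.1 and 693 ± 173 FPKM (SD, n = 4 each). The log2 difference was 0.05 (SE 0.23, 95% interval -0.46 to 0.57, limma adjusted p = 0.887), so that a change beyond 0.57 in either direction lay outside the interval. Quantile normalization gave 0.75 (adjusted p = 0.0215), and among the scalings tried it was the only one that called the gene.

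Ftl1 (ENSMUSG00000050708, chr7:45457944-45459884, minus strand) encodes the light chain, which supports the mineral core. It was at 1651, 1251, 1610 and 1715 FPKM in WT and at 995, 1578, 829 and 1549 FPKM in Nynrin-KO. KO1 and KO3 lay below every WT library and KO2 and KO4 within their range. The means were 1557 ± 208 and 1238 ± 382 FPKM (SD, n = 4 each). The log2 difference was -0.37 (SE 0.26, 95% interval -0.96 to 0.21, limma adjusted p = 0.309), and it was 0.02 under quantile normalization. The annotation also places Gm22133 on the same strand and Gm10252 on the other strand of this locus. Ftl1 and Fth1 were the most abundant of the 10 genes, at ranks 42 and 93 of the table by mean FPKM, against ranks 1002 for Hmox1, 4236 for Slc40a1 and 7362 for Ireb2.

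The balance of the ferritin chains was looked at after their values were seen and was not tested. Per length, Ftl1 was 2.15, 2.26, 2.65 and 2.43 times Fth1 in WT1 to WT4 and 1.90, 2.06, 1.42 and 1.72 times in KO1 to KO4. Every Nynrin-KO ratio was below every WT ratio, with KO2 nearest to WT1. Neither chain alone passed the test. Among single genes tested, 15.0% had every Nynrin-KO library below every WT library, and no such share was worked out for ratios. Both chains together took 0.266% to 0.431% of the summed FPKM in WT and 0.172% to 0.382% in Nynrin-KO. Processed copies of ferritin genes can share reads with their parents, and the labels do not say how the authors counted such reads. The 3 copies of the light chain gene, Ftl1-ps1, Ftl2-ps and Ftl1-ps2, together equalled 8.51% to 9.05% of the Ftl1 value in WT and 6.89% to 7.85% in Nynrin-KO. Ftl1-ps1, named after its values were seen, went from 63.2 ± 6.33 to 40.0 ± 10.7 FPKM (log2 change -0.68, limma adjusted p = 0.0474), and passed in 7 of 21 alternative fits. The adjusted p ranged from 0.0696 to 0.121 when WT1, WT2, WT3, WT4, KO1 or KO3 was left out, with log2 differences from -0.75 to -0.56. The values of the light chain are therefore less certain than those of single-copy genes.

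Ncoa4 (ENSMUSG00000056234, chr14:32159865-32179855, plus strand) encodes the receptor that carries ferritin to the lysosome for iron release. It was at 33.4, 37.9, 21.9 and 36.5 FPKM in WT and at 39.3, 21.0, 27.1 and 45.6 FPKM in Nynrin-KO. As for Fth1, the lowest and the highest library were both Nynrin-KO. The means were 32.4 ± 7.28 and 33.2 ± 11.2 FPKM (SD, n = 4 each), with a 95% interval of the log2 difference from -0.63 to 0.64 (limma adjusted p = 0.994).

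Iron sensing was represented by the iron regulatory proteins. Ireb2 (ENSMUSG00000032293, chr9:54863789-54912530, plus strand) encodes IRP2, which is degraded when iron is plentiful. It was at 2.83, 2.89, 1.68 and 2.69 FPKM in WT and at 3.84, 4.58, 4.17 and 4.63 FPKM in Nynrin-KO. All 4 Nynrin-KO libraries lay above all 4 WT libraries. The mean rose from 2.52 ± 0.569 to 4.31 ± 0.372 FPKM (SD, n = 4 each), 1.71-fold, with a log2 change of 0.60 (SE 0.17, 95% interval 0.22 to 0.99, limma adjusted p = 0.0295). The call was less stable than those of Hmox1 and Slc40a1, with 11 of 21 alternative fits past the threshold. The adjusted p was 0.0523 without WT1, 0.0522 without WT4, 0.0802 without KO2 and 0.0818 without KO4. It was 0.0620 under quantile normalization, 0.145 under median-of-ratios scaling, 0.186 with no filter and 0.282 in the 5 libraries high in Gm10800. The log2 change stayed between 0.48 and 0.69 whenever 1 or both libraries of a number were left out.

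Aco1 (ENSMUSG00000028405, chr4:40143081-40198338, plus strand) encodes IRP1, which is a cytosolic aconitase when it holds an iron-sulphur cluster and binds the hairpins when it does not. It was at 4.80, 5.75, 1.99 and 4.62 FPKM in WT and at 2.95, 6.47, 3.57 and 5.54 FPKM in Nynrin-KO. The groups overlapped, and the lowest value, in WT3, rested on 15 reads. The means were 4.29 ± 1.61 and 4.63 ± 1.65 FPKM, with a log2 difference of 0.10 (SE 0.30, 95% interval -0.57 to 0.78, limma adjusted p = 0.827). Of the 4 genes with a match to the hairpin pattern, Slc40a1 rose and Fth1, Ftl1 and Tfrc did not pass the test. These are amounts of mRNA, on which binding acts only for hairpins after the coding sequence, as in Tfrc.

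Results that rest on the libraries with unusual values were recomputed without them, as the map of all alternative fits shows. With WT1 and KO1 both left out, Hmox1 (2.50, adjusted p = 0.0139) and Slc40a1 (2.73, adjusted p = 0.00283) passed, whereas Slc11a1 (1.41, adjusted p = 0.0770) and Ireb2 (0.69, adjusted p = 0.0850) did not. With the shallow libraries WT3 and KO3 left out, all of Hmox1, Slc40a1, Slc11a1 and Ireb2 passed, at log2 changes of 2.40, 2.98, 1.91 and 0.49 by limma. Slc40a1 alone passed among the 10 genes in the 5 libraries high in Gm10800 (2.78, adjusted p = 0.0226).

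**Figure D3:**
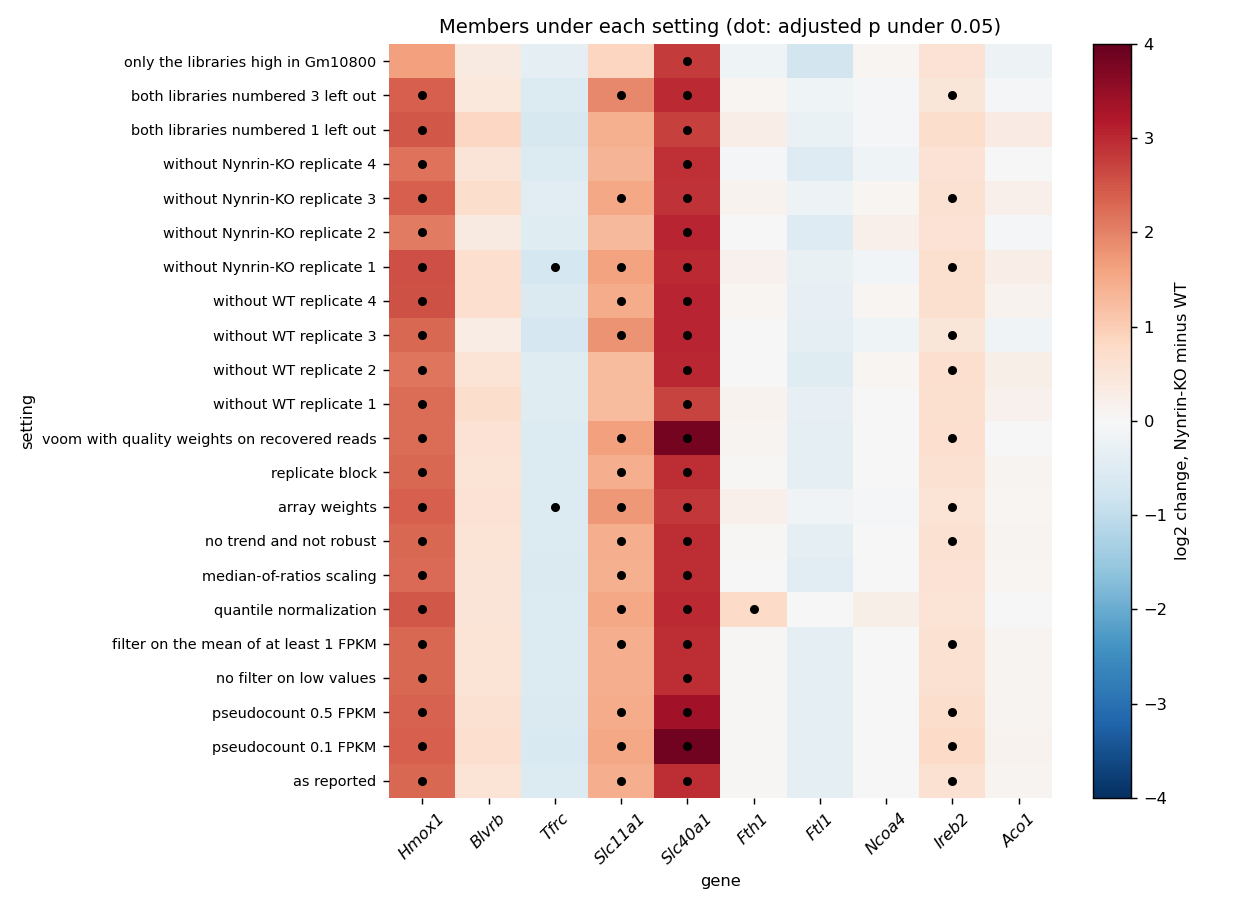
Log2 change of each of the 10 genes (columns) under each alternative fit (rows), coloured from -4 (blue) to 4 (red), with a dot where the adjusted p was under 0.05. Slc40a1 has a dot in every row and Hmox1 in every row but the one with the 5 libraries high in Gm10800.

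Marker genes of several other blood cells also differed between the groups. In bulk RNA, more cells of a type and more RNA per cell cannot be told apart. The 15 markers of iron-recycling macrophages summed to 51.4 to 78.1 FPKM in WT and to 264 to 721 FPKM in Nynrin-KO. Of the 13 tested, 9 were called higher in Nynrin-KO and 0 lower. Of these 13, 5 had no WT library at 1 FPKM and so passed the filter through Nynrin-KO alone; among the other 8, 5 were called higher. The part of macrophage RNA in the results for Slc40a1, Hmox1 and Slc11a1 was not tested. C1qa, a complement gene of tissue macrophages, was higher, at 0.980 to 2.50 FPKM in WT and 15.3 to 20.8 FPKM in Nynrin-KO (limma log2 change 2.77, adjusted p = 0.00065). C1qb, C1qc, Vcam1 and Apoe, with C1qa the called genes among those 8, are also expressed by tissue macrophages. Of the macrophage genes chosen for naming, Spic, Cd163 and Adgre1 did not pass. Spic, the transcription factor of iron-recycling macrophages, was at 0.0264 to 1.11 FPKM in WT and 0.956 to 2.44 in Nynrin-KO (limma adjusted p = 0.0624). Cd163, the haemoglobin-haptoglobin receptor, was at 0.803 to 2.09 and 0.996 to 1.36 FPKM (adjusted p = 0.694), and Adgre1, which encodes F4/80, was at 34.7 to 45.2 and 23.6 to 66.6 FPKM (adjusted p = 0.968). No marker of any list was at 0 in all libraries.

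The 14 markers of mature neutrophils, cells that also express Slc11a1, summed to 3005 FPKM in WT1, 55517 to 104685 in the other WT libraries, and 125192 to 283980 FPKM in Nynrin-KO. Of the 14, 9 were called higher and 0 lower. S100a8, the most abundant neutrophil gene named here, was at 1288 FPKM in WT1, at 26206 to 45965 FPKM in the other WT libraries and between 58606 and 128921 FPKM in the Nynrin-KO libraries (limma adjusted p = 0.0975). Within Nynrin-KO the neutrophil sum was highest in KO1, where Hmox1 and Slc11a1 were lowest, and lowest in KO2, where both were highest. The macrophage sum in Nynrin-KO was lower in KO1 and KO3 and higher in KO2 and KO4, and so were Hmox1 and Slc11a1, whereas Slc40a1 was lowest in KO2. Single macrophage markers differed in their order. Adgre1 followed the sum, at 23.6, 49.9, 26.4 and 66.6 FPKM in KO1 to KO4. C1qa did not and was highest in KO1, at 20.8, 15.3, 15.3 and 16.6 FPKM. These orders cover 4 libraries and are given as a description. The 16 erythroid markers summed to 1.17 to 5.97 FPKM in WT and 10.3 to 53.0 in Nynrin-KO, with Hbb-bs, a beta globin gene, at 0 to 0.277 FPKM and 2.35 to 15.8 FPKM. Of the 4 that passed the filter, 3 were called higher, and all 3 of these passed it through the Nynrin-KO libraries alone. The 6 mast cell and basophil markers summed to 6.62 to 11.4 and 47.2 to 117 FPKM, and the 6 T and NK cell markers to 0.813 to 10.4 and 96.1 to 226 FPKM, with 3 of 5 and 1 of 1 tested genes called higher, 1 of the 3 having passed through Nynrin-KO alone. The 1 tested T and NK cell gene was Nkg7. Of these 6 markers, 2 had a mean of at least 1 FPKM in Nynrin-KO and 1 in WT. The sums of the 8 monocyte markers (2045 to 3109 and 1696 to 4075 FPKM), of the 5 B cell markers (20.0 to 27.5 and 19.1 to 37.2 FPKM) and of the 9 markers of the sorted leukaemia cells (2950 to 3973 and 1662 to 4471 FPKM) overlapped between the groups. Of the tested genes on these 3 lists, 0 of 8, 1 of 3 and 2 of 9 were called higher and 2, 0 and 4 lower, and 1 of the called rises on each of the last 2 lists passed the filter through Nynrin-KO alone. The 2 called higher on the leukaemia list were Hoxa9 and Meis1, the genes named for the drivers. The other called genes of this list, 4 of 9, were lower. The median log2 change of the 8 tested besides Meis1 was -0.66. Hoxa9 was at 0.569 to 1.90 FPKM in WT and 1.70 to 6.38 FPKM in Nynrin-KO (limma adjusted p = 0.0397). Meis1, at 0.664 to 0.898 FPKM in WT and 2.0 to 5.1 FPKM in Nynrin-KO, passed the filter through Nynrin-KO alone. The part of these cells in the results was not tested.

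**Figure D4:**
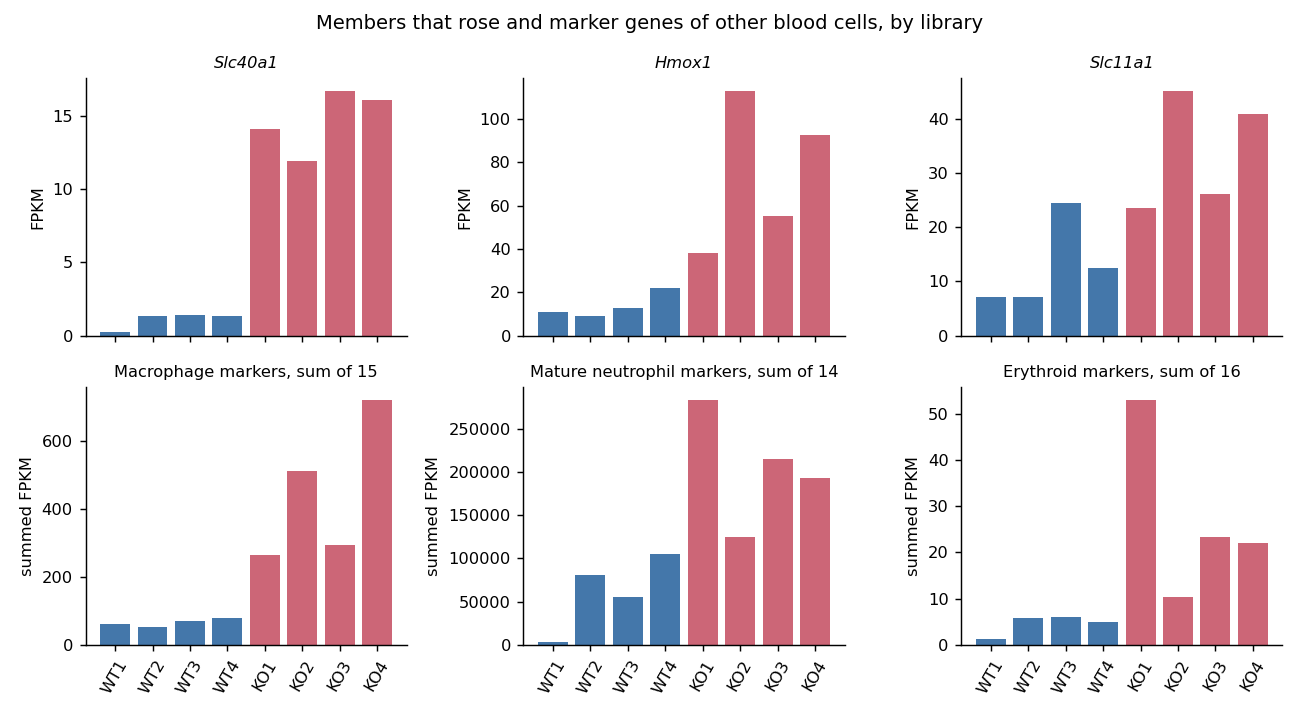
FPKM of Slc40a1, Hmox1 and Slc11a1 (upper bars) and summed FPKM of the macrophage, neutrophil and erythroid marker lists (lower bars) in each library, WT in blue and Nynrin-KO in red, each axis from 0. All 3 sums are higher in every Nynrin-KO library than in every WT library, and KO1 has the highest neutrophil and erythroid sums but the lowest macrophage sum of the Nynrin-KO libraries.

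The 10 genes were set in a wider list of 66 further iron and haem genes, of which 51 passed the filter. Of these, 7 were higher in Nynrin-KO (13.7%) and 6 lower (11.8%), near the share over all genes in each direction, with a median log2 change of 0.08. Among the 7 rises, Bach1 and Steap4 passed the filter through the Nynrin-KO libraries alone. In iron sensing, 3 of 6 tested genes were called higher and 0 lower, or 2 of 5 without Bach1. In iron-sulphur cluster assembly and mitochondrial iron, 4 of 16 tested genes were lower and 1 higher.

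Among the sensing genes, Fbxl5 encodes the ubiquitin ligase subunit that targets IRP2 for degradation when iron is present. It was at 10.4, 9.70, 8.18 and 14.1 FPKM in WT and at 32.8, 43.5, 24.5 and 44.6 FPKM in Nynrin-KO (log2 change 1.67, SE 0.24, limma adjusted p = 0.00242). For Fbxl5 and for Ireb2, every Nynrin-KO library lay above every WT library, which held for 16.7% of all genes tested. A link between the changes of Fbxl5 and Ireb2 was not tested. Bach1, the haem-binding repressor of Hmox1, was at 0.556 to 0.979 FPKM in WT and 2.05 to 3.76 FPKM in Nynrin-KO (log2 change 1.03, limma adjusted p = 0.00865). Since it passed the filter through the Nynrin-KO libraries alone, it could only be tested because it was higher there. Nfe2l2, which encodes NRF2, an activator of Hmox1 and of the ferritin genes, went from 23.0 ± 1.56 to 42.6 ± 12.0 FPKM (0.82, adjusted p = 0.0242). It did not pass when WT1, WT2, WT4, KO2 or KO4 was left out (adjusted p 0.0508 to 0.0682, log2 differences 0.70 to 0.82). For Nfe2l2, as for Hmox1, every Nynrin-KO library lay above every WT library. The part of Nfe2l2 or Bach1 in the result for Hmox1 was not tested.

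Of the mitochondrial genes, Slc25a37, which encodes the iron importer mitoferrin-1, rose from 3.62 ± 0.814 to 9.29 ± 1.07 FPKM (log2 change 1.17, SE 0.17, limma adjusted p = 0.00259). Fdx1, a ferredoxin that carries electrons, fell from 4.79 ± 0.818 to 1.60 ± 0.305 FPKM (-1.15, adjusted p = 0.00272). Hspa9, the mitochondrial chaperone mortalin, fell from 93.7 ± 44.4 to 21.8 ± 3.12 FPKM (-1.96, adjusted p = 0.00279). The groups did not overlap for these 3 genes, and of them Hspa9 alone passed in the 5 libraries high in Gm10800. Bola3 and Glrx5, which take part in making or handing on iron-sulphur clusters, were also called lower. Glrx5 (log2 change -0.95, adjusted p = 0.0208) did not pass without WT1, KO1 or KO4 (log2 differences -0.90 to -0.80).

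In haem synthesis, 1 of 8 tested genes was called. Alad, which encodes the enzyme that joins aminolaevulinate into porphobilinogen, was at 36.1, 18.1, 15.0 and 22.9 FPKM in WT and at 5.37, 7.28, 4.64 and 7.29 FPKM in Nynrin-KO. It fell by 1.69 on the log2 scale (SE 0.27, limma adjusted p = 0.00332), and the groups did not overlap. Alas1, the first enzyme of the pathway in most cells, did not pass (88.8 ± 30.5 and 51.4 ± 19.1 FPKM, adjusted p = 0.139). Among the genes around export, Hfe, which helps to set hepcidin and binds the transferrin receptor, rose from 1.78 ± 0.461 to 7.75 ± 3.38 FPKM (log2 change 1.58, adjusted p = 0.00607). In the 5 libraries high in Gm10800 its adjusted p was 0.107. It was the only 1 of 6 that could be tested. Hamp, which encodes hepcidin, the hormone that removes ferroportin, was at most 1.03 FPKM in any library.

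In uptake and ferrireduction, 2 of 8 tested genes rose and 1 fell. Steap3, a ferrireductase of the transferrin cycle, was lower, at 1.78 to 2.86 FPKM in WT and 0.164 to 1.15 FPKM in Nynrin-KO (log2 change -0.92, limma adjusted p = 0.0255). It did not pass without WT1 (-0.90, adjusted p = 0.0627) or without KO1 (-0.75, adjusted p = 0.0509). Lcn2, a siderophore-binding protein that is also on the neutrophil list, was higher, at 18.0 to 517 FPKM in WT and 787 to 2482 FPKM in Nynrin-KO (log2 change 2.92, limma adjusted p = 0.0432). Leaving out WT2, WT3 or any single Nynrin-KO library ended its call (2.56 to 3.20, adjusted p 0.0547 to 0.107). Steap4, another ferrireductase, reached 0.646 FPKM in WT and 1.04 to 1.54 FPKM in Nynrin-KO (log2 change 0.89, limma adjusted p = 0.0292). It passed the filter through the Nynrin-KO libraries alone, and without WT1 its adjusted p was 0.0619 (0.79). None of the 3 tested haem transport genes, the 3 further storage genes or the 4 tested ferroptosis genes was called by limma. The last group includes Gpx4, the lipid peroxidase that protects from ferroptosis, at 182 ± 51.9 and 121 ± 26.9 FPKM (-0.57, adjusted p = 0.150).

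**Figure D5:**
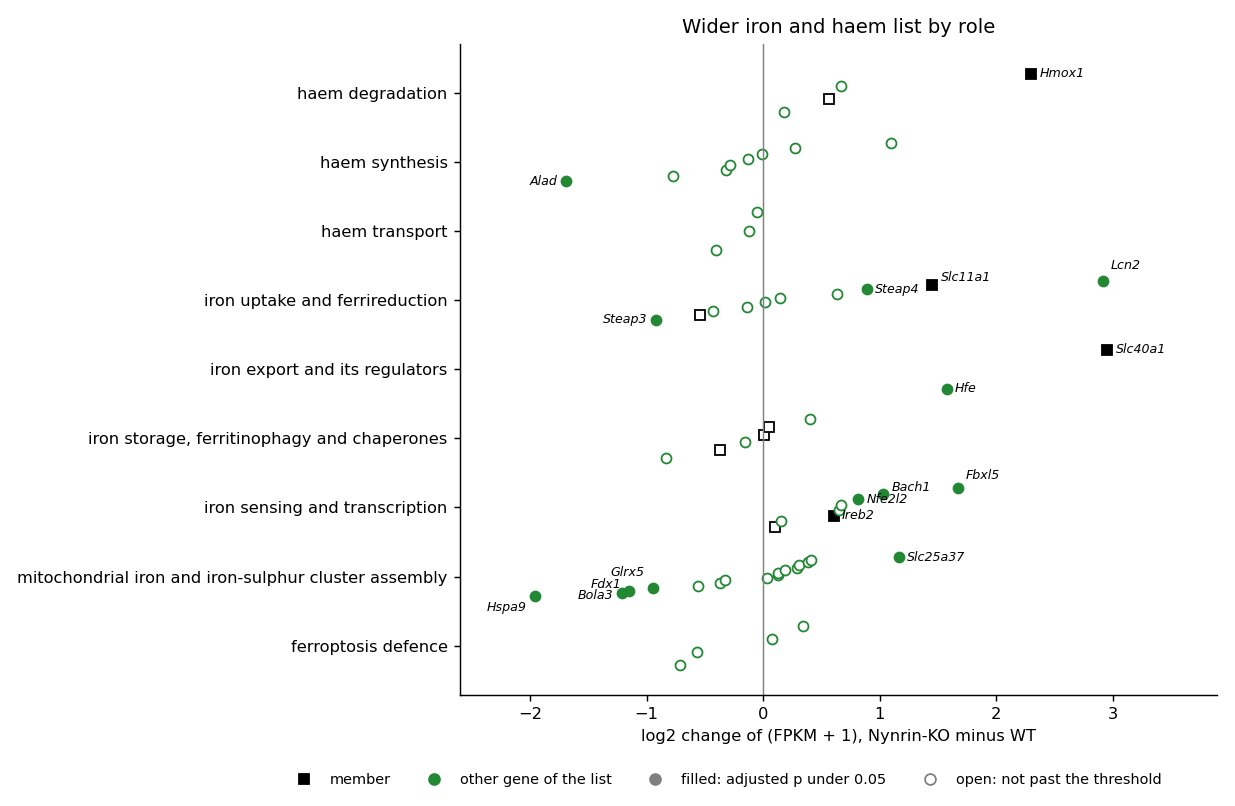
Change of every tested gene of the wider list and of the 10 genes (squares) in Nynrin-KO against WT on the log2(FPKM + 1) scale (horizontal axis), by role (vertical axis); filled symbols passed an adjusted p of 0.05. Filled symbols to the right of 0 lie in haem degradation, uptake, export, sensing and the mitochondrial group, and 4 of the 6 falls in the wider list lie in the mitochondrial group.

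The genes nearest in pattern to Hmox1, Slc40a1 and Tfrc were found by the root mean square difference of log2(FPKM + 1) over the 8 libraries, each gene centred on its own mean. Nearest to Hmox1 was Fyb, an adaptor protein of immune cells, with a difference of 0.125. It was at 13.6, 10.2, 15.3 and 22.2 FPKM in WT and at 48.4, 112, 56.2 and 104 FPKM in Nynrin-KO, the same order of libraries as Hmox1 within Nynrin-KO. Map3k8, a kinase of inflammatory signalling, and Samhd1, a hydrolase of deoxynucleotides, followed at 0.248 and 0.251. Nearest to Slc40a1 were the nucleoside transporter Slc28a2 (0.246), the acute-phase protein Orm1 (0.297) and the ubiquitin ligase Nedd4 (0.349), all of them lowest in WT1 as Slc40a1 was. Nearest to Tfrc were Txn1, which encodes thioredoxin (0.118), Ccdc90b (0.130) and the centromere protein gene Cenpn (0.135). Txn1 was at 189 to 296 FPKM in WT and 143 to 212 FPKM in Nynrin-KO. Likeness over 8 libraries is a description, and these genes share every library property named above.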

How the data were processed

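The authors deposited one table of 48500 mouse genes with a value column per library, and the header names no unit. FPKM was inferred for the deposited values, since multiplying them by transcript length (the longest per gene in GENCODE M21) gave the same total in every column, and since whole reads came out for 99.4% to 99.6% of the values checked (tolerance 0.1 read). Per the submitters' processing notes, the build was mm10 and the tools were HTSeq, Bowtie 0.12.9 and Cufflinks 2.1.1. Their roles, the counting rule and strand use were not stated. The column names were matched to the libraries by the library names in the labels. The level of 3 reads for a 1 kb transcript was 0.0907 to 1.64 FPKM, which covers counting error only.

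The 10 genes and all lists were chosen with earlier results of these data known, and 1 gene of the wider list is not reported here. The filter kept genes that reached 1 FPKM in at least 4 of 8 libraries. The fits on the libraries high in Gm10800, and those without both libraries of a number, asked for 3. The fit was made in R 4.3.3 with limma 3.58.1, on log2(FPKM + 1), with trend and robust variances and the group as the only term. The test was two-sided, with Benjamini-Hochberg adjustment over all 12524 genes and a threshold of 0.05. The procedure was tested on simulated data, and the outcome is not given here. In these data each gene varied on its own, without differences of sex or cell content between libraries. Folds are ratios of mean FPKM and log2 changes carry the pseudocount of 1 FPKM, so those of low genes are understated. For every role of the wider list, called genes were counted and up to 3 with the smallest p were named. Bola3, Glrx5 and the genes that did not pass (Hmox2, Blvra, Alas1, Hamp, Gpx4) were named besides, after their values were seen, as were Xist, Ddx3y, Gm10800 and the ferritin copies. Alternatives were the pseudocount, the filter, scaling, weights, voom on recovered reads, the replicate number as a block, left-out libraries and a threshold of 0.01. Coordinates count from 1. Python 3.11.15, numpy 2.4.6, pandas 2.3.3 and matplotlib 3.10.9 were used.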

Additional observations from a re-analysis of the deposited data

Results flagged for a closer look

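Among 20 groups of 4 libraries examined for the 10 genes, 2 held a library whose gap to its nearest neighbour exceeded Dixon's 95% limit as a share of the group's range, and chance gives such a gap in about 1 of 20 groups. Slc40a1 was 0.223 FPKM in WT1 against 1.33 to 1.43 FPKM in the other WT libraries. WT1 was also the deepest library and the lowest in neutrophil and erythroid markers. Ireb2 was 1.68 FPKM in WT3 against 2.69 to 2.89 FPKM in the other WT libraries. WT3 was the shallowest WT library, and its Ireb2 value rested on 19 reads.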

How the results depend on the processing

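The labels do not say whether a replicate number pairs the samples. Centred within each group, same-numbered libraries correlated at -0.39 to 0.33. The closest Nynrin-KO library had the same number for WT3, but not for WT1, WT2 or WT4. With the replicate block, 2838 genes, 3 of the 10 genes and 11 of the wider list were called, and Ireb2 (adjusted p = 0.0636) was the one lost. As reported, 3488 genes were called, with 4 of the 10 higher, 0 lower and 13 of the wider list. The count of all genes was 1698 with no filter, 2118 with median-of-ratios scaling, 1814 without both libraries numbered 1, 821 in the 5 libraries high in Gm10800 and 1454 at 0.01. In those 5 libraries 20.7% of calls were higher, against 50.3% as reported. These 2 shares are not directly comparable, since the filter on the 5 (WT2, WT3, WT4, KO1 and KO3) asked for 3 libraries. A gene at 1 FPKM in Nynrin-KO alone could not be tested there, whereas a gene at 1 FPKM in WT alone could. The count higher of the 10 was 2 with no filter, 2 without both libraries numbered 1, 1 in the Gm10800-high libraries, 2 at 0.01 and 2 to 4 with 1 library left out. The count lower was 1 with array weights and 0 to 1 with 1 library left out. The wider count was 8, 9, 9, 3 and 8 with no filter, median-of-ratios scaling, both libraries numbered 1 left out, the Gm10800-high libraries and 0.01, and 8 to 14 with 1 library left out. Signs changed only near 0 and without a call. Ftl1 was 0.021 under quantile normalization. Ncoa4 was -0.029 with median-of-ratios scaling, -0.051 with array weights, -0.0037 with voom, -0.071 and -0.093 without both libraries numbered 1 or 3, and -0.17 to 0.20 with 1 left out. Aco1 was -0.064 without both libraries numbered 3, -0.19 in the Gm10800-high libraries and -0.15 to 0.26 with 1 left out. Fth1 was -0.16 in the Gm10800-high libraries and -0.084 to 0.18 with 1 left out. The cause of these changes was not tested, except that left-out libraries lower the number of samples and a looser filter raises the number of genes adjusted for. Depth limits Blvrb, Aco1, Ireb2 and Slc40a1 most, with as few as 7 to 19 reads in the shallowest libraries.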
